A study of Oryctolagus cuniculus with 39 samples.

Results

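The stromal vascular fraction of interscapular brown adipose tissue (iBAT) was compared with that of subscapular brown adipose tissue (sBAT) in rabbits 12 weeks old. The comparison took the 3 iBAT and the 3 sBAT libraries of that age, which were 6 of the 24 bulk stromal libraries and 6 of the 39 samples of the study. The labels, and no measured value, chose these 6 libraries. A gene entered the comparison when it had an FPKM (fragments per kilobase of transcript, scaled to the mapped fragments of the library) of 1 or more in 3 or more of the 6 libraries, which left 12175 of the 20589 genes in the table.

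The study followed the involution of brown fat in New Zealand White rabbits by RNA sequencing at day 1 and at 3, 6 and 12 weeks after birth. All 6 libraries came from total RNA of the stromal vascular fraction, and the labels give no treatment, genotype, sex or pooling of animals for either depot. The groups differed only in the depot, with 3 libraries each. The labels do not say whether replicates were separate animals, so p-values measure the spread between these libraries.

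The stromal vascular fraction is what sediments when fat is digested and the floating adipocytes are removed. It holds adipocyte progenitors and other fibroblasts, vessel wall cells, and leukocytes, and it supplies the collagen-rich matrix of the depot. Rabbit brown fat loses its thermogenic character in the weeks after birth. In such bulk samples, fewer cells of a type and less RNA per cell cannot be told apart.

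Library sizes were not analysed here, because the table holds FPKM and no counts. From the spacing of low FPKM values, the depth of the other libraries relative to iBAT replicate 1 was estimated at 1 and 0.933 for iBAT replicates 2 and 3, and at 0.688, 0.917 and 0.949 for sBAT replicates 1 to 3, so sBAT replicate 1 was the shallowest. The first principal component held 55.5% of the variance and separated the depots. The iBAT libraries lay at 35.1, 12.7 and 38.3 on it and the sBAT libraries at -39.1, -37.1 and -9.8, so iBAT replicate 2 and sBAT replicate 3 lay between the others. Levels below are FPKM after median ratio scaling over the 6 libraries. Differences are log2(scaled FPKM + 1), sBAT minus iBAT, with the standard error (SE) and the Benjamini-Hochberg adjusted p of limma over all genes tested.

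Among the genes that passed after scaling, those for matrix, interstitial progenitors and limb or trunk patterning were mostly lower in sBAT stroma, while erythroid, lymphoid and lipid storage genes were higher. Of the 12175 genes, 989 passed an adjusted p of 0.05 (8.12%), 593 lower in sBAT (4.87%) and 396 higher (3.25%). Their absolute log2 differences ran from 0.47 to 4.56 with a median of 0.99, beside a median signed difference of -0.015 over all genes tested. The 3 sBAT levels lay above all 3 iBAT levels for 1901 genes (15.6%) and below them for 2327 (19.1%). With the replicate number as a block, 2459 genes passed (20.2%), 1044 higher in sBAT (8.57%) and 1415 lower (11.6%), among them all 989. Without scaling between libraries, 2796 genes passed as higher in sBAT and 331 as lower, since the median over all genes moved by 0.36, but none of the 989 genes changed direction.

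The number of calls rested on which libraries were present. It was 33 without iBAT replicate 1, 39 without iBAT replicate 3, 44 without sBAT replicate 2 and 123 without sBAT replicate 1, but 1458 without iBAT replicate 2 and 1888 without sBAT replicate 3. In none of these fits did any of the 989 genes change direction where it was tested. The call was kept in every such fit that tested the gene for 25 genes. Those lower in sBAT included MMP27, WNT2, C12H6orf132, LOX, PODN, WNT4, C1RL and L3HYPDH. Those higher included STRADB, CIDEC, CEBPA, NFE2, GFRA3, TNFAIP6, EPB42, ALAS2, CA1, C1QTNF3 and THBS4. WNT4 and THBS4 were tested in only 3 of these fits. The filter on low values left both out of the other fits, which therefore could not show whether the call was kept.

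**Figure D1:**
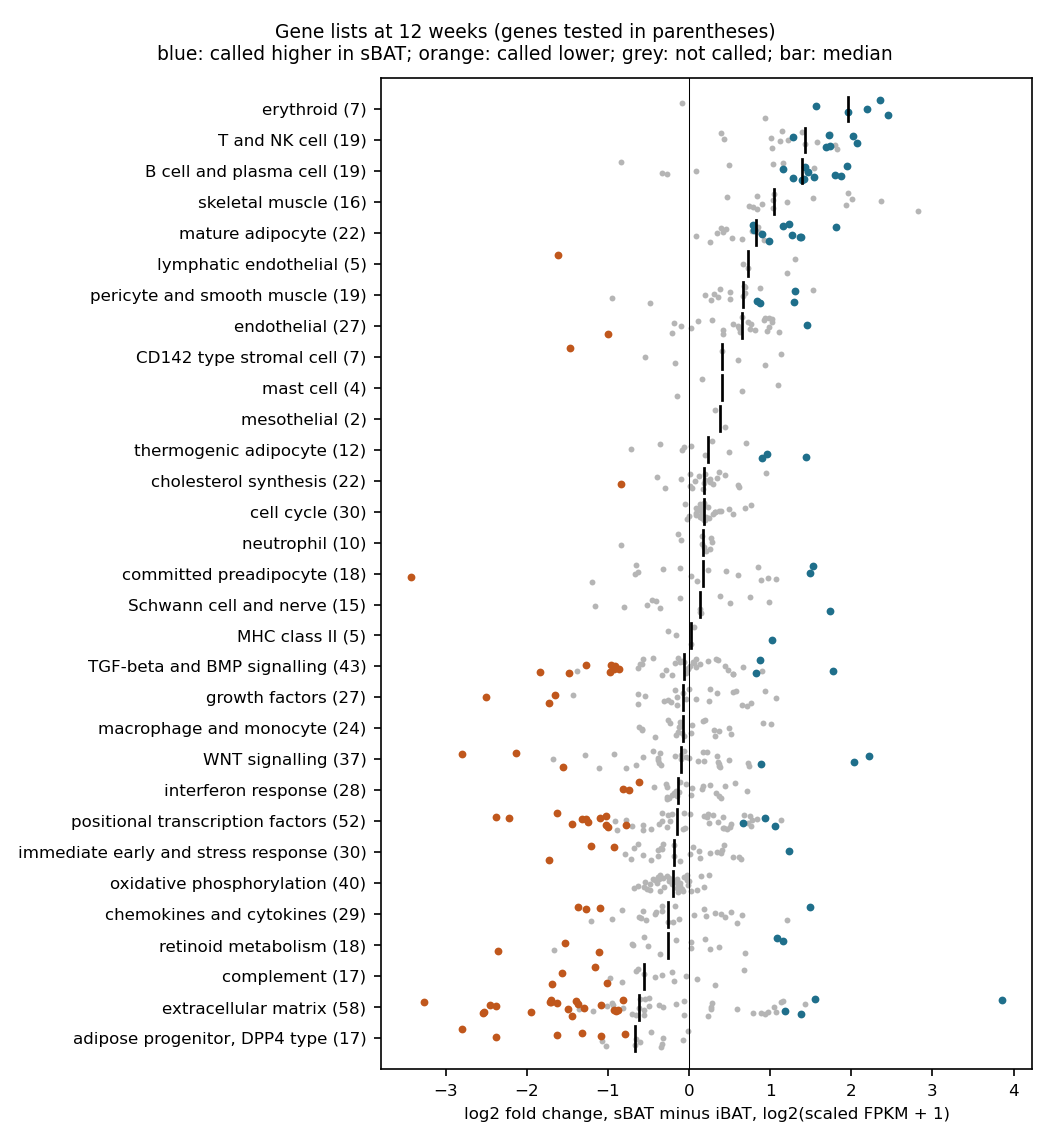
Log2 difference at 12 weeks, sBAT minus iBAT (x axis), of each tested gene of 31 gene lists (y axis, number tested in parentheses), with called genes in colour and the median of each list as a bar. The erythroid, T cell and B cell lists have medians above 1.3, and the extracellular matrix and DPP4 type progenitor lists have medians of -0.61 and -0.67.

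Fibrillar collagen genes were among the most abundant of those lower in sBAT. Type I collagen is the main tensile fibre of connective tissue, and its 2 chains are made together. COL1A1 was at 14957, 11763 and 14609 FPKM in the iBAT libraries and at 1425, 1793 and 5105 in the sBAT libraries. The sBAT levels were all below the iBAT levels, with sBAT replicate 3 the closest, and the log2 difference was -2.54 (SE 0.47, adjusted p = 0.0274). COL1A2, the partner chain, differed by -2.53 (SE 0.44, adjusted p = 0.0230). COL3A1, the chain of type III collagen, was at 16914, 13236 and 19651 FPKM in iBAT and at 3097, 3456 and 7256 in sBAT, a log2 difference of -1.94 (SE 0.39, adjusted p = 0.0325). Again no sBAT level reached the iBAT range.

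Not every collagen was lower. Among 22 tested collagen chain genes, taken by symbol after the values were seen, 8 passed as lower in sBAT and 2 as higher, with a median log2 difference of -0.63. The lower chains included COL5A2, COL6A1 and COL6A2, with log2 differences of -0.90, -0.92 and -0.87, as well as COL9A3 at -1.77 and COL16A1 at -1.42. The higher ones were COL12A1, which binds to the surface of collagen fibres, at 1.38 (SE 0.25, adjusted p = 0.0247), and COL5A3 at 1.18 (SE 0.19, adjusted p = 0.0210). The type IV chains of basement membranes did not pass. COL4A1 was at 144, 279 and 121 FPKM in iBAT and at 384, 421 and 279 in sBAT, so iBAT replicate 2 and sBAT replicate 3 met, and the log2 difference was 1.07 (SE 0.32, adjusted p = 0.0754, and 0.0163 with the block). With the block, 6 collagen chains passed as higher and 11 as lower.

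Genes that modify and assemble collagen were lower with it. LOX, the enzyme that crosslinks collagen and elastin, was at 104.5, 89.2 and 113.3 FPKM in iBAT and at 16.8, 17.4 and 22.9 in sBAT. The depots were far apart in every library, and the log2 difference was -2.37 (SE 0.16, adjusted p = 0.00393). SERPINH1, the collagen chaperone of the endoplasmic reticulum, was at 969, 929 and 1140 FPKM in iBAT and at 336, 343 and 425 in sBAT (-1.46, SE 0.18, adjusted p = 0.0131). PCOLCE2, which enhances removal of the procollagen C-terminal piece, was at 1723, 1267 and 2005 in iBAT and at 325, 386 and 692 in sBAT (-1.88, SE 0.32, adjusted p = 0.0228). Both genes, chosen after their values were seen, were lower in each sBAT library than in any iBAT library. In a family of 24 tested collagen processing genes, written down after the values were seen, 11 passed as lower in sBAT and none as higher. Besides these 3, the lower genes were the proline hydroxylases P4HA2, P4HA3, P3H1 and P3H3, and the related gene P3H4. The cofactor CRTAP and the procollagen proteinases BMP1 and ADAMTS2 were the others. The lysine hydroxylases PLOD1, PLOD2 and PLOD3 did not pass, at -0.24, 0.15 and -0.33.

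**Figure D2:**
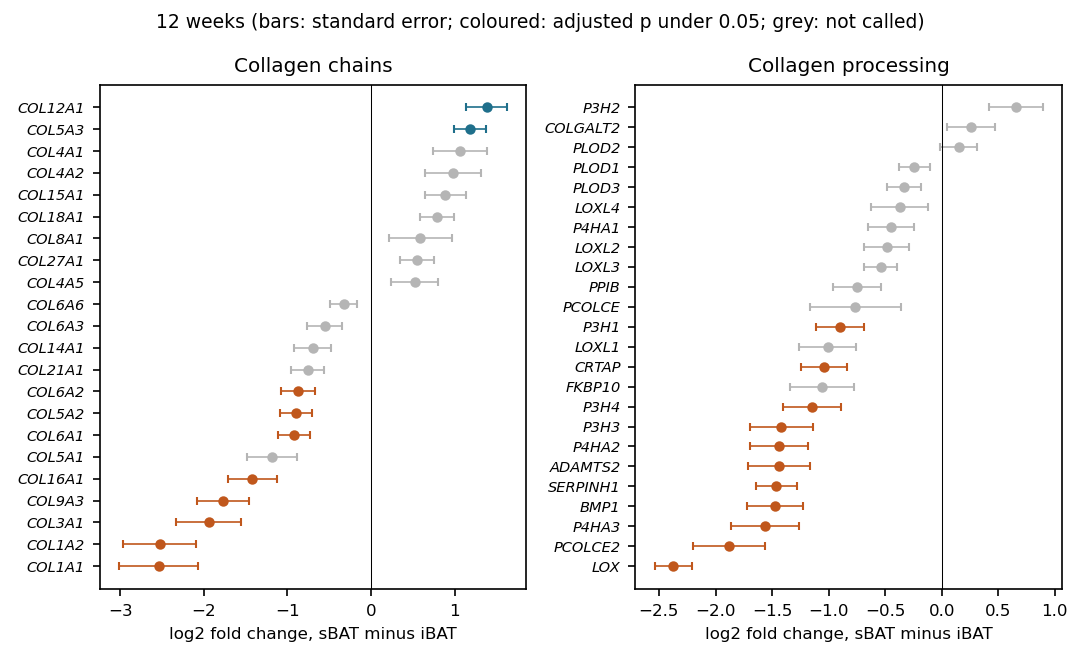
Log2 difference, sBAT minus iBAT, with its standard error (x axis), of the tested collagen chain genes and collagen processing genes (y axis). COL1A1 and COL1A2 lie lowest among the chains, COL12A1 and COL5A3 are coloured as higher, and LOX lies lowest among the processing genes at -2.37.

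Of the 58 tested genes of the extracellular matrix list, 20 passed as lower in sBAT and 4 as higher, and the list's median was -0.61 against -0.015 over all genes. The block gave 28 lower and 12 higher, and no scaling 18 lower and 13 higher. Over all 12175 genes, 331 passed as lower and 2796 as higher without scaling. The count of lower genes was 1 without iBAT replicate 1 or sBAT replicate 2, 2 without iBAT replicate 3, 3 without sBAT replicate 1, 21 without iBAT replicate 2 and 28 without sBAT replicate 3. The summed level of the list was 88580, 71762 and 107771 FPKM in the iBAT libraries and 21483, 24163 and 42536 in the sBAT libraries, so no sBAT library reached the lowest iBAT library.

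Other matrix genes that were lower in sBAT included the matricellular protein POSTN, the glycoprotein MFAP4, elastin (ELN), and the metalloproteinases MMP2 and MMP14 with the inhibitors TIMP1 and TIMP2. POSTN was at 884, 567 and 1485 FPKM in iBAT and at 43.1, 52.6 and 351 in sBAT. All sBAT values were lower, but sBAT replicate 3 stood far above the other sBAT libraries, and the log2 difference was -3.27 (SE 0.77, adjusted p = 0.0457). MMP27, a little studied matrix metalloproteinase, had the lowest log2 difference of the genes named by rule, with 38.1, 53.1 and 79.3 FPKM in iBAT against 0.847, 2.26 and 4.42 in sBAT (-4.12, SE 0.41, adjusted p = 0.00675). PODN, a small leucine-rich proteoglycan, fell outside the lists and was at 241, 283 and 247 FPKM in iBAT and at 42.5, 60.4 and 62.9 in sBAT (-2.22, SE 0.18, adjusted p = 0.00463). The rule that named MMP27 asked for no overlap, and PODN was chosen after its values were seen. That neither gene overlapped between the depots thus reflects the choice. Over all genes tested, 19.1% were higher in iBAT without overlap.

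The 4 matrix genes that were higher in sBAT were THBS4, TNC, COL12A1 and COL5A3. THBS4, a thrombospondin of tendon and muscle connective tissue, was nearly absent from iBAT at 0.023, 0.158 and 0.089 FPKM, and was at 23.98, 9.07 and 14.8 FPKM in sBAT (3.86, SE 0.30, adjusted p = 0.00463). TNC, tenascin C, was at 0.721, 0.641 and 0.544 FPKM in iBAT and at 5.29, 2.42 and 4.15 in sBAT (1.56, SE 0.23, adjusted p = 0.0182). Both transcripts were below 1 FPKM in every iBAT library and met the filter on low values only through the sBAT libraries. Their lack of overlap therefore follows from the filter. HMCN2, a hemicentin of basement membranes outside the lists, was at 0.904, 2.67 and 0.468 FPKM in iBAT and at 13.7, 9.78 and 10.3 in sBAT (2.48, SE 0.33, adjusted p = 0.0142).

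Markers of the interstitial progenitors that carry DPP4 and PI16, cells placed at the top of the adipocyte lineage in mice, were lower in sBAT. Of the 17 tested genes of this list, 6 passed as lower and none as higher, all 17 differences were below 0, and the median was -0.67. PI16, a peptidase inhibitor that marks these cells, was at 3212, 3776 and 2135 FPKM in iBAT and at 1042, 884 and 964 in sBAT. Every iBAT library was above every sBAT library, and the log2 difference was -1.62 (SE 0.25, adjusted p = 0.0194). The others were WNT2, LOX, SEMA3C, MFAP5 and SCARA5, of which LOX and MFAP5 also belong to the matrix list. DPP4 itself was at 59.6, 49.9 and 55.1 FPKM in iBAT and at 50.04, 41.6 and 66.8 in sBAT, so the depots overlapped (-0.08, SE 0.19, adjusted p = 0.808). The count of lower genes in this list was 2 without iBAT replicate 1, sBAT replicate 1 or sBAT replicate 2, 3 without iBAT replicate 3, and 11 without sBAT replicate 3.

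Committed preadipocyte markers went in both directions, with 2 of 18 higher in sBAT and 1 lower, and 6 and 4 with the block. DLK1, the secreted preadipocyte factor that restrains adipocyte differentiation, was at 138, 111 and 196 FPKM in iBAT and at 7.36, 7.41 and 34.0 in sBAT (-3.43, SE 0.54, adjusted p = 0.0197). The sBAT levels were all lower, with sBAT replicate 3 above its fellows. SMOC2, a matricellular protein, was at 8.16, 17.6 and 18.0 FPKM in iBAT and at 33.5, 51.6 and 41.6 in sBAT (1.53, SE 0.30, adjusted p = 0.0319), and the proteoglycan GPC3 differed by 1.5 (SE 0.29, adjusted p = 0.0312). PDGFRA, the receptor that marks most adipose fibroblasts, was at 54.8, 41.1 and 45.8 FPKM in iBAT and at 31.4, 34.8 and 47.7 in sBAT, which overlapped (-0.32, SE 0.19, adjusted p = 0.287, and 0.09 without scaling).

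**Figure D3:**
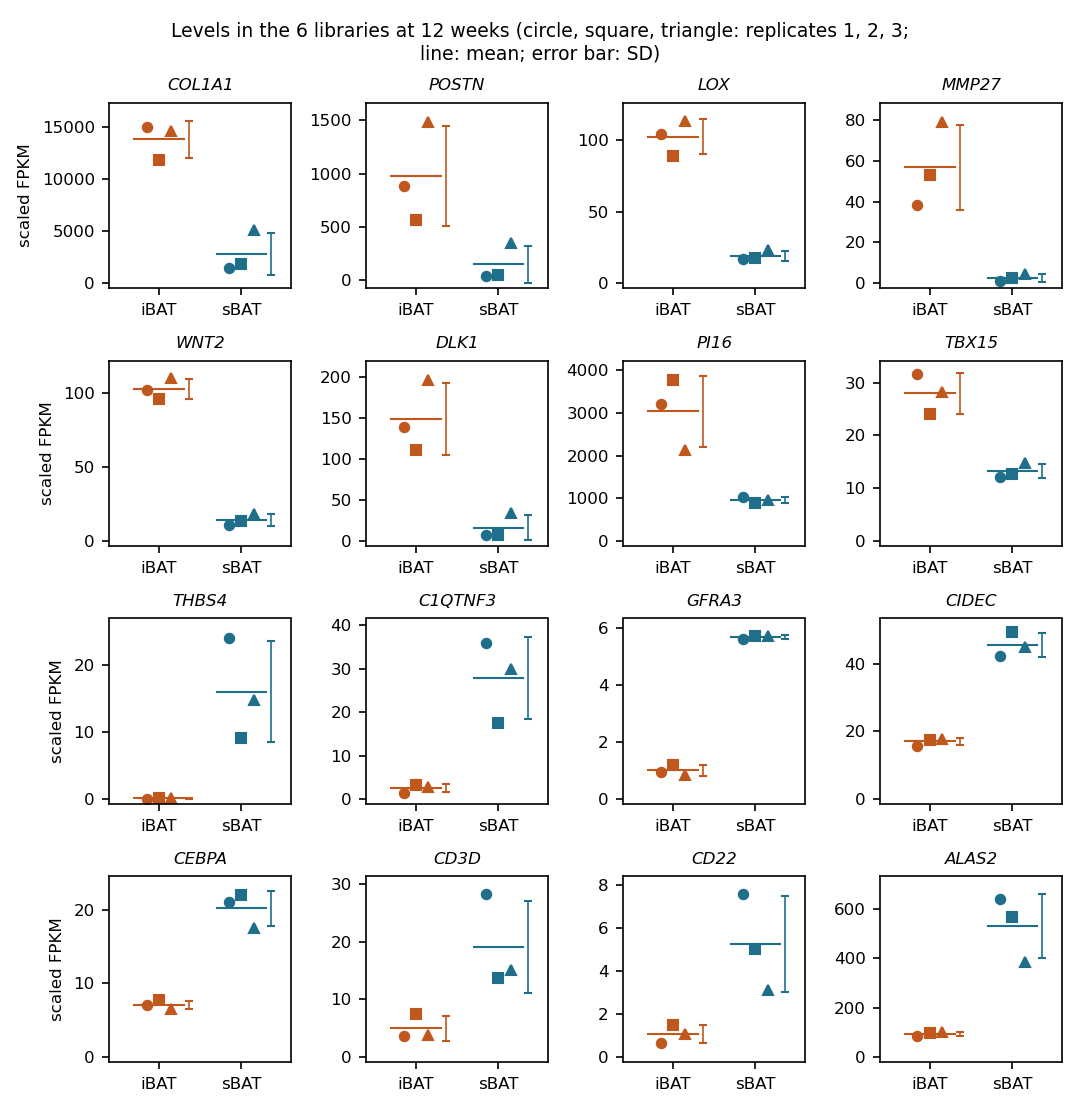
Scaled FPKM (y axis, linear) of 16 genes in the 3 iBAT and 3 sBAT libraries at 12 weeks, with the mean and SD of each depot. All 16 genes had passed, and some were named by a rule that asked for no overlap. That the depots do not overlap in any panel thus reflects in part the choice of genes. Over all genes tested, the sBAT levels lay above all iBAT levels for 15.6% and below them for 19.1%. For COL1A1, POSTN and DLK1, sBAT replicate 3 (triangle) is the sBAT library nearest to iBAT.

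Ligands of several pathways differed between the depots, in both directions. WNT2, a canonical WNT ligand, was at 101.9, 95.8 and 109.8 FPKM in iBAT and at 10.6, 13.5 and 18.5 in sBAT (-2.80, SE 0.20, adjusted p = 0.00393). WNT4 was at 6.12, 5.18 and 5.68 FPKM in iBAT and below 1 FPKM in every sBAT library, at 0.206, 0.577 and 0.852 (-2.13, SE 0.19, adjusted p = 0.00568). The depots were apart for both ligands, but the rule that named WNT2 asked for no overlap. WNT4 met the filter on low values only through the iBAT libraries, so its lack of overlap follows from the filter. DKK2, a secreted WNT antagonist, was lower in sBAT by -1.56 (SE 0.25, adjusted p = 0.0210). The WNT genes that were higher were the receptor FZD4 and the transcription factors LEF1 and TCF7, which also act in lymphocytes, at 0.89, 2.03 and 2.22. In all, 3 of 37 tested WNT pathway genes passed as higher and 3 as lower, with 4 and 8 under the block and 7 and 4 without scaling. The list's median was -0.095. Over all 12175 genes, 8.12% passed in limma and 20.2% under the block, and without scaling 2796 passed as higher and 331 as lower. The counts are not read as a result about the list.

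In the TGF-beta and BMP list, 8 of 43 tested genes passed as lower in sBAT and 3 as higher. The block gave 10 lower and 6 higher, and no scaling 5 lower and 8 higher. Over all 12175 genes, 331 passed as lower and 2796 as higher without scaling. None passed without iBAT replicate 1 or 3 or sBAT replicate 2. The lower ones were the ligands BMP3 and BMP4, the inhibin subunits INHBA and INHA, the proteinase BMP1, the latency protein LTBP1, and the BMP antagonists CHRD and CHRDL1. BMP3 was at 8.58, 3.98 and 6.74 FPKM in iBAT and at 0.888, 1.23 and 0.908 in sBAT (-1.84, SE 0.24, adjusted p = 0.0142). BMP4, a ligand that commits mesenchymal cells to the adipocyte lineage, was at 76.2, 76.6 and 98.8 FPKM in iBAT and at 33.2, 44.6 and 49.97 in sBAT (-0.97, SE 0.19, adjusted p = 0.0310). No sBAT library reached iBAT for either ligand. The ligands BMP2, BMP5 and TGFB2 went the other way. BMP5 was at 2.07, 0.956 and 1.92 FPKM in iBAT and at 10.2, 11.2 and 4.12 in sBAT (1.77, SE 0.35, adjusted p = 0.0312).

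Secreted growth factors and cytokines followed the same mix. IGFBP2, which binds insulin-like growth factors, was at 490.5, 327 and 612 FPKM in iBAT and at 62.2, 71.9 and 117.6 in sBAT (-2.50, SE 0.30, adjusted p = 0.0131), and ANGPTL4, an inhibitor of lipoprotein lipase, differed by -1.72 (SE 0.26, adjusted p = 0.0182). With the heparin-binding factor MDK at -1.65, these were the 3 of 27 tested growth factor genes that passed, all lower. The block gave 5 lower and 4 higher, no scaling 4 lower and 8 higher, and none passed without iBAT replicate 1 or 3 or sBAT replicate 2. Among 29 chemokine and cytokine genes, IL6, IL34 and LIF passed as lower at -1.09, -1.27 and -1.37. KITLG, the ligand of the KIT receptor, passed as higher at 1.49, and the block gave 8 lower and 4 higher. The counts of both lists stand beside 8.12% of all genes in limma and 20.2% under the block. Without scaling, 331 of all 12175 genes passed as lower and 2796 as higher. C1QTNF3, a secreted relative of adiponectin outside the lists, was at 1.41, 3.27 and 2.77 FPKM in iBAT and at 35.96, 17.6 and 30.0 in sBAT (3.03, SE 0.30, adjusted p = 0.00675). This was the second largest rise among the genes named by rule, after THBS4.

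Of 17 tested complement genes, 4 passed as lower in sBAT and none as higher, with a median of -0.55. The count was 6 under the block, 0 without iBAT replicate 1 or sBAT replicate 2, 1 without iBAT replicate 3, 2 without sBAT replicate 1 and 5 without sBAT replicate 3. C1R, a protease of the first complement complex, was at 457, 354 and 339 FPKM in iBAT and at 122, 86.7 and 152 in sBAT (-1.69, SE 0.23, adjusted p = 0.0147). Its partner C1S differed by -1.01, the inhibitor SERPING1 by -1.16, and the alternative pathway gene CFB by -1.56. In the retinoid list the binding protein CRABP1, the chemerin gene RARRES2 and the retinoic acid synthesising enzyme ALDH1A3 were lower, while RBP4 and the receptor RXRG were higher, out of 18 tested, with 5 lower and 2 higher under the block. CRABP1 was at 50.8, 59.6 and 18.1 FPKM in iBAT and at 4.20, 8.02 and 8.68 in sBAT (-2.35, SE 0.45, adjusted p = 0.0286), and iBAT replicate 3 was the iBAT library nearest to sBAT.

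NOX5, a calcium-activated NADPH oxidase that mice and rats lack, was at 213, 50.8 and 95.3 FPKM in iBAT and at 1.91, 3.17 and 16.2 in sBAT (-4.11, SE 0.72, adjusted p = 0.0242). The range within iBAT was wide. Its lowest library was above the highest of sBAT, which the rule that named the gene asked for. The remaining genes named for their large fall in sBAT were CGREF1, ZNF706, KAZALD1, ITGBL1, CPXM1 and C12H6orf132, with log2 differences of -3.89, -2.94, -2.82, -2.68, -2.68 and -2.58. KAZALD1 is a secreted insulin-like growth factor binding protein related protein, ITGBL1 a secreted protein with integrin-like repeats, and CPXM1 a secreted carboxypeptidase-like protein.

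Transcription factors that record body position differed in both directions. Of 52 tested genes of the positional list, 12 passed as lower in sBAT and 3 as higher, with 17 and 8 under the block. Without scaling 9 passed as lower and 15 as higher, with a median of 0.17 in place of -0.14. Over all 12175 genes, 331 passed as lower and 2796 as higher without scaling, with a median of 0.341. The lower ones included the limb and skin mesenchyme factors PRRX1, PRRX2, TBX15, TWIST2, SHOX2 and MSX2. PRRX2 was at 48.1, 39.8 and 48.3 FPKM in iBAT and at 5.73, 10.4 and 12.0 in sBAT (-2.21, SE 0.25, adjusted p = 0.0109), and TBX15 at 31.7, 24.1 and 28.2 against 12.2, 12.7 and 14.7 (-1.03, SE 0.15, adjusted p = 0.0161). Both were apart in all libraries. SHOX2 was at 10.2, 1.24 and 7.47 FPKM in iBAT and at 0.247, 0 and 0.204 in sBAT (-2.38, SE 0.54, adjusted p = 0.0439), so iBAT replicate 2 was the iBAT library nearest to sBAT. PAX3, a factor of muscle and neural crest precursors, was at 0, 0.032 and 0.051 FPKM in iBAT and at 0.971, 0.932 and 0.973 in sBAT, which is low but even (0.93, SE 0.17, adjusted p = 0.0250). SHOX2 met the filter on low values only through the iBAT libraries, and PAX3 only through the sBAT libraries. Their lack of overlap therefore follows from the filter. ZIC1, a marker of interscapular brown fat precursors, did not differ beyond its spread, with 2.87, 3.14 and 3.10 FPKM in iBAT and 2.98, 3.17 and 2.47 in sBAT (-0.06, SE 0.14, adjusted p = 0.791). The count of lower positional genes was 0 without iBAT replicate 1 or iBAT replicate 3, 2 without sBAT replicate 1 or sBAT replicate 2, and 14 without sBAT replicate 3.

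HOX genes, which lie in 4 clusters and are numbered by paralog group from the head end to the tail end of their expression, are described here by number. The division was made after the values were seen, and 19 of 33 HOX genes in the table were tested. In paralog groups 1 to 4, 7 of 10 tested genes were at a higher mean in sBAT and 3 at a lower one, and 2 passed, both higher. In groups 5 to 9, 2 of 9 were at a higher mean and 7 at a lower one, and 4 passed, all lower. The filter on low values shaped these counts. HOXC8 met it only through the iBAT libraries and HOXD3 only through the sBAT libraries. HOXB8 was at 0.197, 0.866 and 0.352 scaled FPKM in sBAT. Of groups 5 to 9, the filter left out HOXC6 and HOXB9, at a lower mean in sBAT, and HOXA9 and HOXD9, at a higher one. Without scaling, the numbers above and below 0 were 9 and 1 in groups 1 to 4, and 3 and 6 in groups 5 to 9. The median over all genes was 0.341 without scaling. Under the block 3 genes of groups 1 to 4 passed as higher and 1, HOXC4, as lower (adjusted p = 0.0321), while in groups 5 to 9 5 passed as lower and 1, HOXB5, as higher (adjusted p = 0.0267). The 2 genes that passed as higher were HOXB3, at 3.71, 4.75 and 3.19 FPKM in iBAT and 7.74, 10.5 and 9.27 in sBAT (1.06, SE 0.17, adjusted p = 0.0208), and HOXD4 (0.66, SE 0.16, adjusted p = 0.0497). The lower genes were HOXC5, HOXA7, HOXB8 and HOXC8, at -0.78, -0.99, -1.02 and -1.44. HOXC8 was at 2.72, 3.75 and 1.62 FPKM in iBAT and at 0.436, 0.330 and 0.204 in sBAT (SE 0.24, adjusted p = 0.0218). None of the 9 genes of groups 10 to 13 in the table reached the level for testing. HOX transcripts overlap antisense RNAs in their clusters, and whether the counting used strand is not given in the sources used here.

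**Figure D4:**
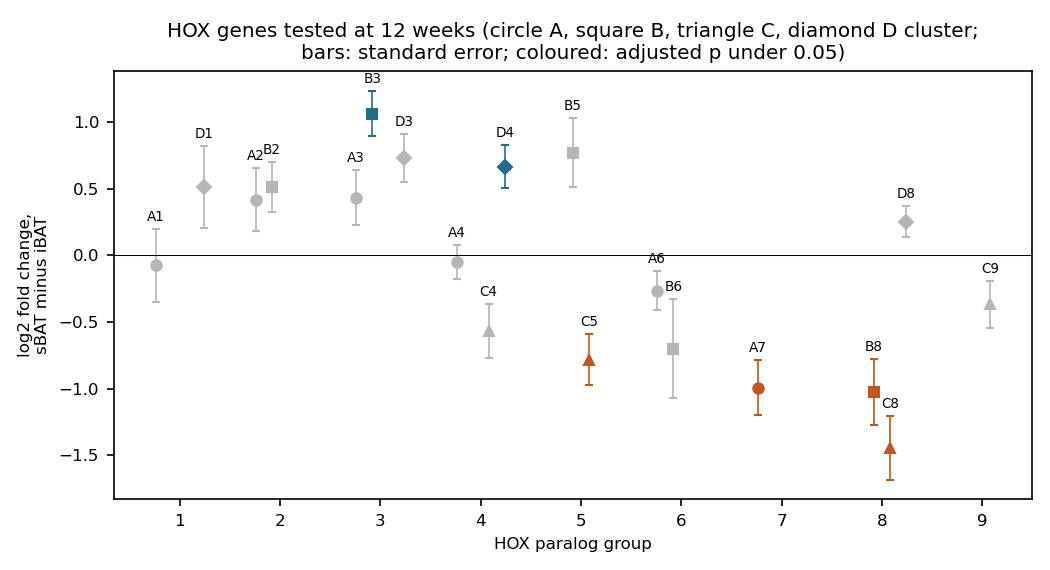
Log2 difference, sBAT minus iBAT, with its standard error (y axis), of the 19 tested HOX genes by paralog group (x axis), with the cluster as the symbol. HOXB3 and HOXD4 are coloured as higher in sBAT, and HOXC5, HOXA7, HOXB8 and HOXC8 as lower, while HOXB5 and HOXD8 lie above 0 among the higher-numbered groups.

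Lipid storage genes were higher in sBAT. Of 22 tested genes of the mature adipocyte list, 10 passed as higher and none as lower, all 22 differences were above 0, and the median was 0.83. With the block 15 passed. CIDEC, which enlarges lipid droplets, was at 15.8, 17.6 and 17.8 FPKM in iBAT and at 42.2, 49.3 and 45.0 in sBAT (1.37, SE 0.12, adjusted p = 0.00568). CEBPA, a transcription factor of terminal adipocyte differentiation, was at 7.07, 7.69 and 6.55 FPKM in iBAT and at 21.1, 22.0 and 17.5 in sBAT (1.38, SE 0.14, adjusted p = 0.00675). The spread within each depot was small for both. The others were the lipogenic genes DGAT2, THRSP, ACACB and ELOVL6 at 1.27, 1.23, 0.99 and 0.90, the glyceroneogenic enzyme PCK1 at 1.81, the lipase LIPE at 0.80, the glucose transporter SLC2A4 at 0.79 and the retinol carrier RBP4 at 1.17.

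ADIPOQ, adiponectin, was at 337, 513 and 278 FPKM in iBAT and at 850.2, 905 and 424 in sBAT, where sBAT replicate 3 fell inside the iBAT range (0.92, SE 0.35, adjusted p = 0.124, and 0.0205 with the block). The summed level of the adipocyte list overlapped between the depots, at 3616, 5675 and 5781 FPKM in iBAT and 7769, 7234 and 5451 in sBAT. The count of called adipocyte genes was 2 without iBAT replicate 1 or 3, 3 without sBAT replicate 1 or 2, and 12 without iBAT replicate 2 or sBAT replicate 3.

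UCP1, the uncoupling protein of brown fat, stayed below the level for testing, at 0, 0.053 and 0 FPKM in iBAT and 1.68, 0.049 and 1.52 in sBAT. Of 12 tested thermogenic genes, 3 passed, all higher in sBAT (5 with the block), beside 3.25% of all genes higher in limma and 8.57% under the block. Of the 12 differences, 8 were above 0 and 4 below, with a median of 0.24. The count was 0 without iBAT replicate 1 or 3 or sBAT replicate 1 or 2, 1 without iBAT replicate 2 and 3 without sBAT replicate 3. In the table, 9 other genes of the list, PPARGC1A, PRDM16 and DIO2 among them, were too low to test. CIDEA, a lipid droplet protein enriched in brown fat, was at 57.6, 56.7 and 66.6 FPKM in iBAT and at 145, 85.5 and 117 in sBAT (0.90, SE 0.20, adjusted p = 0.0422). COX7A1, a muscle and brown fat subunit of cytochrome oxidase, differed by 1.45 (SE 0.31, adjusted p = 0.0381), and CPT1B, the muscle-type carnitine transferase, by 0.97 (SE 0.18, adjusted p = 0.0261). COX7A1 and CPT1B are also expressed in muscle, whose list is given below with the libraries that held it. None of 40 tested oxidative phosphorylation genes passed in limma, and the block gave 7 as lower. Their median of -0.20 became 0.20 without scaling, where the median over all genes was 0.341.

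In the pericyte and smooth muscle list 4 of 19 tested genes passed as higher and none as lower, with 9 and 1 under the block. Over all genes, 3.25% passed as higher in limma and 8.57% under the block. The count of higher genes in this list was 0 without iBAT replicate 1 or 3 and 1 without sBAT replicate 1 or 2. It was 5 without iBAT replicate 2 and 8 without sBAT replicate 3. ACTA2, smooth muscle actin, was at 75.0, 62.4 and 58.3 FPKM in iBAT and at 123.7, 126.9 and 108.2 in sBAT (0.87, SE 0.15, adjusted p = 0.0228). ACTG2, NOTCH3 and CSPG4 were the others, at 1.29, 1.3 and 0.83. Among 27 endothelial genes, KDR, the main receptor for vascular endothelial growth factor, passed as higher (1.46, SE 0.35, adjusted p = 0.0483) and ACKR1, a chemokine sink of venules, as lower (-1.0, SE 0.24, adjusted p = 0.0475), a share near the 8.12% of all genes. PECAM1 was at 62.3, 105.9 and 51.3 FPKM in iBAT and at 137, 145 and 85.2 in sBAT, with iBAT replicate 2 inside the sBAT range (0.76, adjusted p = 0.142, and 0.0256 with the block). Under the block 14 endothelial genes passed as higher and 1 as lower. PDPN, podoplanin, which lymphatic endothelium and fibroblasts both make, was lower in sBAT at -1.61.

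The lymphocyte genes that passed were higher in sBAT. In the B cell and plasma cell list, 10 of 19 tested genes passed as higher and none as lower, with a median of 1.40. Of the 19 differences, 16 were above 0 and 3 below. The summed level of this list overlapped between the depots, at 285.4, 284.3 and 412.1 FPKM in iBAT and 484, 286.5 and 363 in sBAT. In the T and NK cell list, 6 of 19 passed as higher and none as lower, all 19 differences were above 0, and the median was 1.43. CD22, a B cell surface lectin, was at 0.675, 1.49 and 1.08 FPKM in iBAT and at 7.58, 5.05 and 3.11 in sBAT (1.54, SE 0.28, adjusted p = 0.0268). CD3D, a chain of the T cell receptor complex, was at 3.62, 7.41 and 3.88 FPKM in iBAT and at 28.3, 13.8 and 15.1 in sBAT (1.74, SE 0.32, adjusted p = 0.0271). The T cell list summed to 21.7, 73.9 and 32.3 FPKM in iBAT and to 238, 142 and 102.4 in sBAT, so sBAT replicate 1 held the most and iBAT replicate 2 the most among the iBAT libraries. The other T cell genes included CD4, IL7R, CD247 and ICOS, from 1.29 to 2.07, and the other B cell genes included MS4A1, PAX5, CXCR5, CD79B and POU2AF1, from 1.16 to 1.95. The block gave 11 T cell genes as higher, and 11 B cell genes as higher with 1 lower. Both main counts became 0 without iBAT replicate 1, iBAT replicate 3, sBAT replicate 1 or sBAT replicate 2, and were 9 for B cells and 11 for T cells without sBAT replicate 3. Without iBAT replicate 2 they were 12 and 16.

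None of 24 macrophage and monocyte genes, 10 neutrophil genes or 4 mast cell genes passed in limma, and the macrophage median was -0.08. Under the block 1 macrophage gene passed as higher and 2 as lower, 2 mast cell genes as higher and 1 neutrophil gene as lower. Of all genes, 20.2% passed under the block. PTPRC, the antigen common to leukocytes, was at 12.1, 11.5 and 8.80 FPKM in iBAT and at 38.3, 28.2 and 16.4 in sBAT (1.21, SE 0.29, adjusted p = 0.0472). Other genes named for their rise in sBAT are known from lymphocytes: RGS1, which dampens chemokine receptor signals, at 2.38, the IgM receptor FCMR at 2.28 and the T cell factor TCF7 at 2.22.

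Erythroid transcripts were higher in sBAT. HBB2, beta globin, was at 5979, 6834 and 8961 FPKM in iBAT and at 34484, 35849 and 30786 in sBAT (2.23, SE 0.30, adjusted p = 0.0147). Reads of beta globin may be shared with near-identical copies of the gene, and how the authors divided them is not given in the sources used here. ALAS2, which starts haem synthesis in red cell precursors, was at 84.8, 97.2 and 100.4 FPKM in iBAT and at 638, 568 and 384 in sBAT (2.45, SE 0.21, adjusted p = 0.00546). CA1, the carbonic anhydrase of red cells, was at 7.01, 8.17 and 10.1 FPKM in iBAT and at 53.9, 53.9 and 55.6 in sBAT (2.57, SE 0.15, adjusted p = 0.00274). Every sBAT library was above every iBAT library for each, which the rule that named ALAS2 and CA1 asked for. ALAS2 was lowest in sBAT replicate 3. Over all genes tested, 15.6% were higher in sBAT without overlap. Of 7 tested erythroid list genes 5 passed, all higher, among them ALAS2, TRIM58, EPB42 and HEMGN, with a median of 1.96, while AHSP and KLF1 did not, at 0.93 and -0.09. The named globin genes took 1.40 to 1.70% of all FPKM in the iBAT libraries and 7.21 to 9.38% in the sBAT libraries. The lymphoid, vascular and other genes that were higher in sBAT were thus higher in the same libraries as red cell transcripts, and the part of blood in those differences was not tested.

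Skeletal muscle transcripts were uneven between the libraries. None of 16 tested muscle genes passed, but all 16 differences were above 0 with a median of 1.04, and the list summed to 7.05, 8.84 and 177 FPKM in iBAT and to 373, 93.6 and 45.2 in sBAT. ACTA1, skeletal actin, was at 0.778, 0.515 and 71.6 FPKM in iBAT and at 138, 30.0 and 14.8 in sBAT. The muscle signal was thus highest in sBAT replicate 1 and iBAT replicate 3, lower in sBAT replicates 2 and 3, and lowest in iBAT replicates 1 and 2. Its part in the higher levels of THBS4, CPT1B and COX7A1 in sBAT was not tested. THBS4 was at 0.023, 0.158 and 0.089 FPKM in iBAT replicates 1 to 3 and at 23.98, 9.07 and 14.8 in sBAT replicates 1 to 3.

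GFRA3, the artemin receptor of sensory nerves and Schwann cell precursors, was at 0.938, 1.21 and 0.860 FPKM in iBAT and at 5.63, 5.71 and 5.74 in sBAT (1.74, SE 0.14, adjusted p = 0.00463). It was the 1 gene of 15 tested nerve and Schwann cell genes that passed, and the list's median was 0.14. Among immediate early and stress genes BTG2, NR4A1 and MYC were lower in sBAT at -1.72, -1.20 and -0.92, and the chaperone HSPH1 was higher at 1.24, of 30 tested, with 7 lower and 3 higher under the block and 2 lower and 9 higher without scaling. The interferon-induced genes MX1, USP18 and ISG15 were lower at -0.81, -0.62 and -0.74, of 28 tested, but without scaling none passed as lower and 4 as higher. None of 30 cell cycle genes passed in limma, with a median of 0.19, and the block gave 2 as higher. The cholesterol synthesis enzyme HSD17B7 was lower at -0.84, of 22 tested, where the block gave 3 as higher and 1 as lower and no scaling 7 as higher and none as lower, and the class II transactivator CIITA was higher at 1.02, of 5 tested class II genes. VIT, vitrin, was lower at -1.46, of 7 tested genes of the CD142 type stromal list, and neither tested mesothelial gene passed. Without scaling, 331 of all 12175 genes passed as lower and 2796 as higher. Over all genes, 8.12% passed in limma and 20.2% under the block. The few limma calls in the lists of this paragraph are therefore not read as results about the lists.

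ADORA1 and LOC100009266, the genes with the largest summed FPKM in the table, did not mark either depot at 12 weeks. ADORA1, an adenosine receptor, was at 15974, 14330 and 23042 FPKM in iBAT and at 24946, 13840 and 17399 in sBAT (0.06, SE 0.36, adjusted p = 0.924). LOC100009266, annotated as uricase, differed by 0.35 (SE 0.35, adjusted p = 0.525). Together they took 4.04 to 8.81% of all FPKM in the 6 libraries.

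Whether the depot difference at 12 weeks was the same as at younger ages was tested as an interaction of depot and age over the 24 stromal libraries, which shared the 12-week libraries between tests. Against 6 weeks, 1 of 13274 genes passed in limma (0.00753%), and 1289 had an unadjusted p under 0.05. Against day 1, 167 genes passed (1.26%), 96 with a more positive and 71 with a more negative difference at 12 weeks. The block left 44, and without scaling 2404 were more positive and 33 more negative. Without sBAT replicate 2 of 12 weeks 9 genes passed, and without sBAT replicate 3 of 12 weeks 457.

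For several genes that were low in sBAT at 12 weeks, the depot difference was smaller at day 1. The depot difference of LOX was -0.22 at day 1, -1.61 at 3 weeks, -1.94 at 6 weeks and -2.32 at 12 weeks, on the scale of the 24 libraries. Its mean went from 109.2 to 82.6 FPKM in iBAT and from 93.6 to 15.8 in sBAT, and the change in the difference was -2.10 (SE 0.38, adjusted p = 0.0130, and 0.0523 with the block). WNT2 went from 32.0 to 82.8 FPKM in iBAT and from 25.9 to 11.8 in sBAT (-2.50, SE 0.46, adjusted p = 0.0146, and 0.0355 with the block). PI16 went from a mean of 350 to 2457 FPKM in iBAT and from 498 to 799 in sBAT (-2.14, SE 0.49, adjusted p = 0.0415). NOX5 and MMP27 were near 1 FPKM in iBAT at day 1, at means of 1.08 and 1.56, and at 96.7 and 45.8 FPKM at 12 weeks. COL1A1 had a depot difference of -1.08 at day 1 and -2.50 at 12 weeks, and its interaction did not pass (adjusted p = 0.170).

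CEBPA changed its direction between the depots with age. At day 1 it ran from 6.95 to 8.03 FPKM in iBAT and from 3.63 to 4.68 in sBAT, and at 12 weeks from 5.27 to 6.21 in iBAT and from 14.3 to 18.4 in sBAT. The higher depot was thus iBAT at day 1 and sBAT at 12 weeks, and the interaction was 2.10 (SE 0.27, adjusted p = 0.00224, and 0.0208 with the block). ACACB, the mitochondrial acetyl-CoA carboxylase, also passed, from means of 3.49 and 2.64 FPKM in iBAT and sBAT at day 1 to 4.85 and 10.7 at 12 weeks (1.3, SE 0.19, adjusted p = 0.00441). The depot difference of ADIPOQ was -0.66, -2.10, -0.43 and 0.96 over the 4 ages, but its interaction did not pass (adjusted p = 0.162). ZIC1 had a depot difference of -1.05 at day 1, -1.07 at 3 weeks and -1.5 at 6 weeks with no overlap, and -0.03 at 12 weeks, as sBAT went from a mean of 0.151 FPKM at 6 weeks to 2.39 at 12 weeks. Its interaction against day 1 did not pass either (adjusted p = 0.102).

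**Figure D5:**
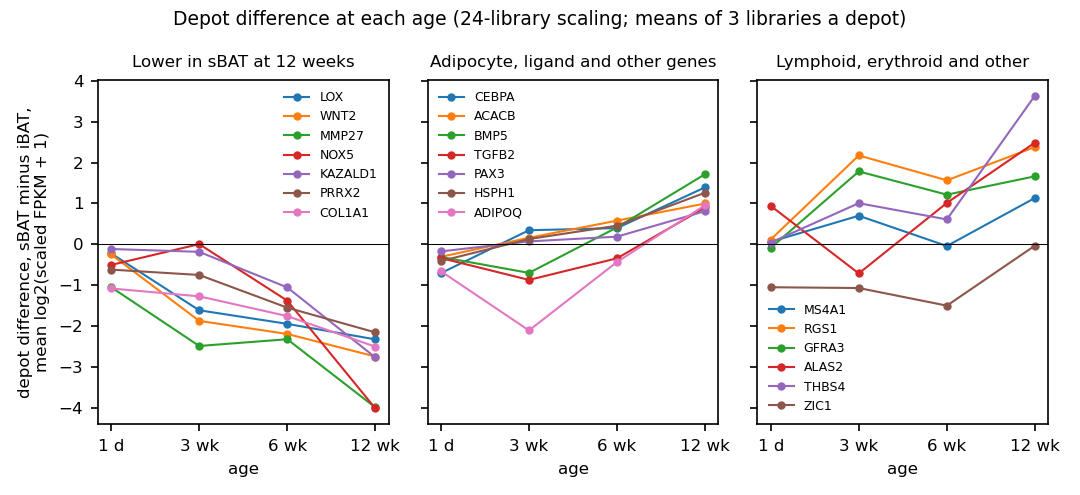
Depot difference, sBAT minus iBAT, of mean log2(scaled FPKM + 1) (y axis) at day 1, 3, 6 and 12 weeks (x axis) for 20 genes, each point from 3 libraries a depot with scaling over 24 libraries. LOX moves from -0.22 to -2.32, CEBPA from -0.70 to 1.40, and ZIC1 from -1.05 to -0.03.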

How the data were processed

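Bulk RNA sequencing of rabbit stromal vascular fractions was read from a deposited table of FPKM values, 1 column for each of 24 libraries, which the authors had computed, per the file headers. The submitters' processing notes name HISAT2 2.0.4, Bowtie2 2.2.5, DESeq2 and the build OryCun2.0 without a role; annotation and strand are not given in the sources used here. Gene symbols are the table's; of 20589 identifiers, 17693 (85.9%) matched RefSeq genes of another assembly, so no coordinates or sequences are given.

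FPKM was divided by median ratio size factors (0.874, 0.952 and 0.791 in iBAT, 1.22, 1.21 and 1.08 in sBAT), a pseudocount of 1 was added, and log2 values of genes at 1 FPKM or more in 3 or more of the 6 libraries were tested with limma 3.58.1 (R 4.3.3, trend moderation, two-sided, Benjamini-Hochberg, threshold 0.05), after tests on simulated data. Fold changes on this scale understate those of low genes. Interactions used all 24 libraries and the same filter over them. Relative depth was the commonest ratio between low FPKM values (0.1 to 0.8) of 2 libraries. FPKM carries no counts, so no counting intervals are given.

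Same-numbered libraries of the depots deviated together (correlations of deviations from depot means 0.22, 0.51 and 0.34; -0.31 to -0.03 for other pairs), so blocked values stand beside results they change. Named genes were the 12 largest non-overlapping calls in each direction with a mean of 5 FPKM or more in the higher depot, every called gene of a list, and 13 fixed by name; the comparison and lists were chosen with earlier results of these data known. HOX, collagen chain and collagen processing families, PODN, SERPINH1, PCOLCE2, COL4A1 and ACTA1 were chosen after their values were seen. The table of whole interscapular tissue was not used. Counts of list genes without single libraries and with the block were added after seeing the data. Some genes are not reported here. Alternatives were scaling, pseudocount, filters, moderation, fold minimum, libraries and block.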

Additional observations from a re-analysis of the deposited data

Results flagged for a closer look

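The depot difference at 12 weeks differed from that at 6 weeks for 1 gene, LOC100356732 (interaction -5.15, SE 0.76, limma adjusted p = 0.0199), and from that at day 1 for 167 genes. Over all genes 1.26% passed against day 1, and 106 of the 167 were also called at 12 weeks. Of the genes named by rule, 22 were among the 167. Most of the named genes were chosen for a call in the same 12-week libraries, and that choice favours such an overlap. More negative at 12 weeks were NOX5 (-3.51), MMP27 (-2.94), KAZALD1 (-2.65), WNT2 (-2.50), C12H6orf132 (-2.22), PI16 (-2.14), LOX (-2.10), TIMP1 (-1.77), PRELP (-1.67), LIF (-1.59), PRRX2 (-1.53) and IL34 (-1.34). More positive ones included RGS1 (2.26), CEBPA (2.10), BMP5 (2.02), GFRA3 (1.75), HSPH1 (1.67), ACACB (1.3), TGFB2 (1.24), MS4A1 (1.07) and PAX3 (0.98). With the replicate block, CEBPA, C12H6orf132, PI16, ACACB, WNT2, KAZALD1 and TIMP1 had adjusted p from 0.0208 to 0.0477, and the other genes given here from 0.0523 to 0.111, past the threshold of 0.05. Groups of 3 libraries were not screened for single libraries that stand apart.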

How the results depend on the processing

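The 989 calls of the depot comparison became 3127 without scaling (711 of them shared), 309 with no filter on low values, 493 with a minimum absolute log2 difference of 1 and 2459 with the replicate block, and ran from 33 to 1888 when 1 library was left out. Upper quartile scaling, a pseudocount of 0.1, a filter at 5 FPKM, other moderation, all 24 libraries and leaving out the 2 dominant genes kept the count within 1.5 times. The interaction against 6 weeks gave 2 genes without scaling, 0 with no filter and 3 with the replicate block, from 0 to 6 without 1 library. That against day 1 gave 2437 without scaling, 523 without the 3-week libraries and 44 with the block, from 9 to 457 without 1 library. Fewer samples were fitted in the last of these; other causes were not tested. Signs changed in genes that had not passed: PDGFRA (0.094), ZIC1 (0.26) and DPP4 (0.34) without scaling, and, without 1 library, ZIC1 (-0.12 to 0.013), DPP4 (-0.26 to 0.077) and ADORA1 (-0.17 to 0.26). Of 153 named genes tested, 151 kept their call status under the block, where all of the 989 calls passed. Without 1 library, far more named genes lost their call. The number was 125 without iBAT replicate 1, 124 without iBAT replicate 3, 121 without sBAT replicate 2 and 107 without sBAT replicate 1. It was 13 without iBAT replicate 2 and 6 without sBAT replicate 3.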
